A study of Mus musculus with 4 samples.

Results

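The cells described here are stromal cells of mouse bone marrow that carried RNA of both Limch1 and Kcnk2 together with much Cxcl12 and little Adipoq. They were sought in all 4 libraries of a single-cell RNA-sequencing study and numbered 489 of the 24084 cells that passed the filter, among 27907 cell barcodes in all. The study compared bone marrow mesenchymal cells over age. Endosteal bone marrow of the long bones was digested, Td+ cells were sorted (the top 1% where no Td peak stood out, otherwise the peak), and RNA was counted as unique molecular identifiers (UMIs) per gene and cell. Each library held the pooled cells of male Col2:Td mice of 1 age, 2 mice at 1 month and 3 mice each at 1.5, 3 and 16 months, so that no age had a replicate library.

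All mice carried Col2-Cre and the Rosa26 lsl-tdTomato reporter on a background labelled B6SJL/F1, and no other treatment or allele separated the groups. Cre from the Col2 promoter marks chondrocytes and their descendants, so Td+ cells are a mixture of mesenchymal types, and the sort also let blood cells through. The Limch1 Kcnk2 cells were chosen on measured values. A cell had to hold 200 to 6000 genes and at most 5% mitochondrial UMIs, at least 1 UMI each of Limch1 and Kcnk2 and at least 3 of the pair, at least 20 Cxcl12 UMIs and under 8 Adipoq UMIs per 10000 UMIs, and no UMI of Ptprc or Cdh5, which mark blood and endothelial cells. Levels of these 6 genes, and differences from other cells of the same libraries, are therefore given as a description. With 1 library per age no test between ages was possible, and differences between classes, which the choice used, were given no test.

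Skeletal stromal cells give rise to both osteoblasts, which lay down and mineralize bone matrix, and marrow adipogenic cells, which make adipokines and supply blood stem cells with factors such as Cxcl12 and Kitl. Runx2 and Sp7 are the transcription factors that commit a cell to bone, while Pparg and Cebpa commit it to fat. Limch1 encodes an activator of non-muscle myosin and Kcnk2 a potassium channel that opens on stretch. Hey1 is a transcriptional target of Notch signaling, Lifr the receptor for leukemia inhibitory factor, and Wif1 a secreted protein that binds and inhibits Wnt ligands.

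The libraries differed in depth and make-up. They summed to between 32672631 UMIs at 3 months and 108227184 at 1 month, over 4516 to 9229 barcodes. The 1, 1.5 and 3 month libraries list 27999 genes and the 16 month library has 31054 genes in its table, of which 26600 are shared by all 4. Atp5o, a subunit of ATP synthase, stood at 398 CPM at 1 month, 327 CPM at 1.5 months, 305 CPM at 3 months and 0 CPM at 16 months in the Limch1 Kcnk2 cells, and what the gene lists contribute to such differences cannot be told apart from age. Between 4 and 111 barcodes of a library were also found in another, 6 of them Limch1 Kcnk2 cells, and none of these cells was such a cell in the other library. Ptprc-positive cells (at least 2 Ptprc UMIs) numbered 2741, 15, 333 and 421 in order of age and serve as a guide to free RNA of stromal genes. For genes that blood cells make themselves their level is no measure of free RNA, and at 1.5 months it rests on 15 cells.

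The Limch1 Kcnk2 cells were present at every age and were few. They numbered 89 of 8308 cells at 1 month, which is 1.07% (0.861 to 1.32, exact Clopper-Pearson 95% interval), and 140 of 5453 at 1.5 months, 2.57% (2.16 to 3.02). At 3 months they were 82 of 4180 cells, 1.96% (1.56 to 2.43), and at 16 months 178 of 6143, 2.90% (2.49 to 3.35). With up to 10% mitochondrial UMIs allowed, the 16 month share was 5.48%. These and all other intervals cover counting error only. The 1 month share lay below the others and held 2741 Ptprc-positive cells in its denominator. Measured against cells with at least 20 Cxcl12 UMIs per 10000 and no Ptprc or Cdh5, the order turned, since they made up 30.0% (24.8 to 35.5) of 297 cells at 1 month and 9.55% (8.09 to 11.2) of 1466 at 1.5 months. They made up 13.9% (11.2 to 16.9) of 591 such cells at 3 months and 4.20% (3.61 to 4.84) of 4241 at 16 months. Adipoq-high cells (at least 8 Adipoq and 20 Cxcl12 UMIs per 10000, no Ptprc or Cdh5) numbered 165, 1182, 340 and 2874, or 1.85, 8.44, 4.15 and 16.1 for each Limch1 Kcnk2 cell.

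Depth bears on how many cells the choice finds. The Limch1 Kcnk2 cells had a median of 8224, 7310, 5777 and 11396 UMIs and of 2817, 2609, 2159 and 3395 genes in order of age. When every cell was thinned to 3000 UMIs, the shares were 0.818, 1.89, 1.53 and 1.05%, so that the 16 month share was no longer the highest. The median cell held 9, 6, 6.5 and 9 Limch1 UMIs and 4, 4, 3 and 2 Kcnk2 UMIs. Over all libraries, 31 cells inside the limit held exactly 3 UMIs of the pair and 32 cells just outside held 2. By Cxcl12, 62 cells lay between 20 and 40 UMIs per 10000 and 80 cells just outside lay between 10 and 20. By Adipoq, 198 of the 489 cells had no UMI, 116 lay between 4 and 8 per 10000, and 178 cells just outside lay between 8 and 16. In all, 559 cells met every other limit but had 8 or more Adipoq UMIs per 10000. They numbered 63, 250, 29 and 217 in order of age and count among the Adipoq-high cells. Limch1 and Kcnk2 together are thus not particular to cells with little Adipoq. A further 9 of the 489 cells reached 100 Bglap2 UMIs per 10000, the limit used here for osteoblast-like RNA.

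Of the 5 markers of the label, the choice fixed Limch1 and Kcnk2 and did not read the other 3. The label was made with earlier results of these data known, so the levels of these 3 are a description and no check of the choice. In what follows, CPM (counts per 1000000) are a gene's UMIs scaled to the total UMIs of a library's cells of 1 class, and 4 values in a row are in the order 1, 1.5, 3 and 16 months. Comparison classes are the Adipoq-high cells and the Bglap-high cells (at least 100 Bglap2 and under 8 Adipoq UMIs per 10000, no Ptprc or Cdh5, numbering 203, 446, 326 and 286). Limch1, which the choice used, stood at 1079 CPM at 1 month, 881 CPM at 1.5 months, 1038 CPM at 3 months and 949.7 CPM at 16 months, against 588, 298, 262 and 313 CPM in Adipoq-high and 19.8, 19.9, 28.1 and 36.1 CPM in Bglap-high cells. Kcnk2, also used, stood at 512, 644, 488 and 219 CPM, against 123, 103, 64.8 and 18.4 CPM in Adipoq-high and 11.7, 11.6, 18 and 19.2 CPM in Bglap-high cells. Both genes stood above the other classes at every age, and Kcnk2 was lowest at 16 months. In GENCODE M21 (GRCm38), Limch1 lies on chromosome 5 from 66745827 to 67057158, Kcnk2 on chromosome 1 from 189207930 to 189402273, Hey1 on chromosome 3 from 8663359 to 8667256, Lifr on chromosome 15 from 7090614 to 7197489 and Wif1 on chromosome 10 from 121033960 to 121100650.

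The 3 markers that the choice did not read were also above both classes at every age. Wif1 reached 2307 CPM (2201 to 2417) at 1 month, 2392 CPM (2304 to 2481) at 1.5 months, 1156 CPM (1073 to 1242) at 3 months and 474 CPM (447 to 503) at 16 months. Adipoq-high cells had 414, 348, 260.5 and 122 CPM of Wif1 and Bglap-high cells 197, 236, 110.3 and 73.5 CPM, so that the Limch1 Kcnk2 cells were 3.88- to 6.87-fold above the former. Ptprc-positive cells had 28.2, 26.7, 15.7 and 23.5 CPM. All of the 89 cells at 1 month, 138 of 140 at 1.5 months, 81 of 82 at 3 months and 163 of 178 at 16 months held a Wif1 UMI. After thinning to 3000 UMIs these shares were 97.8, 91.4, 81.8 and 62.9%, beside 5.22, 0, 3.70 and 5.31% in Ptprc-positive cells. Single cells varied widely, from 1.08 to 75.9 Wif1 UMIs per 10000 at 1 month with a median of 19.9, and from 0 to 42.8 with a median of 3.76 at 16 months.

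Hey1 and Lifr had different courses over age. Hey1 stood at 115 CPM (92.0 to 141) at 1 month, 135 CPM (115 to 158) at 1.5 months, 52.2 CPM (36.0 to 73.4) at 3 months and 36.4 CPM (29.1 to 45.0) at 16 months, against 50.7, 47.4, 25.5 and 20.2 CPM in Adipoq-high and 10.0, 7.85, 4.78 and 3.98 CPM in Bglap-high cells. The ratio to Adipoq-high cells was 1.81- to 2.85-fold, so the gene did not pass 2-fold in all 4 libraries. Lifr stood at 299.8 CPM (262 to 341) at 1 month, 399.7 CPM (364 to 437) at 1.5 months, 910.2 CPM (837 to 988) at 3 months and 879 CPM (842 to 918) at 16 months, against 215, 175, 228 and 295 CPM and 99.3, 145, 199 and 361 CPM. The ratio of Lifr to Adipoq-high cells was 1.39- to 3.99-fold. Hey1 was lowest at 16 months, whereas Lifr was higher in the 3 and 16 month libraries than in the younger ones. Summed over cells, these 3 markers were thus present at every age, in unequal amounts. Hey1 had no UMI in 39 of 89, 69 of 140, 56 of 82 and 128 of 178 Limch1 Kcnk2 cells. After thinning it was found in 30.3, 27.9, 15.6 and 8.57% of them. In cells outside the choice but within its limits of Cxcl12, Adipoq, Ptprc and Cdh5 the shares were 16.3, 10.4, 11.0 and 6.01%. These shares lay below the interval of the Limch1 Kcnk2 cells at 1 and 1.5 months and within it at 3 and 16 months.

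**Figure D1:**
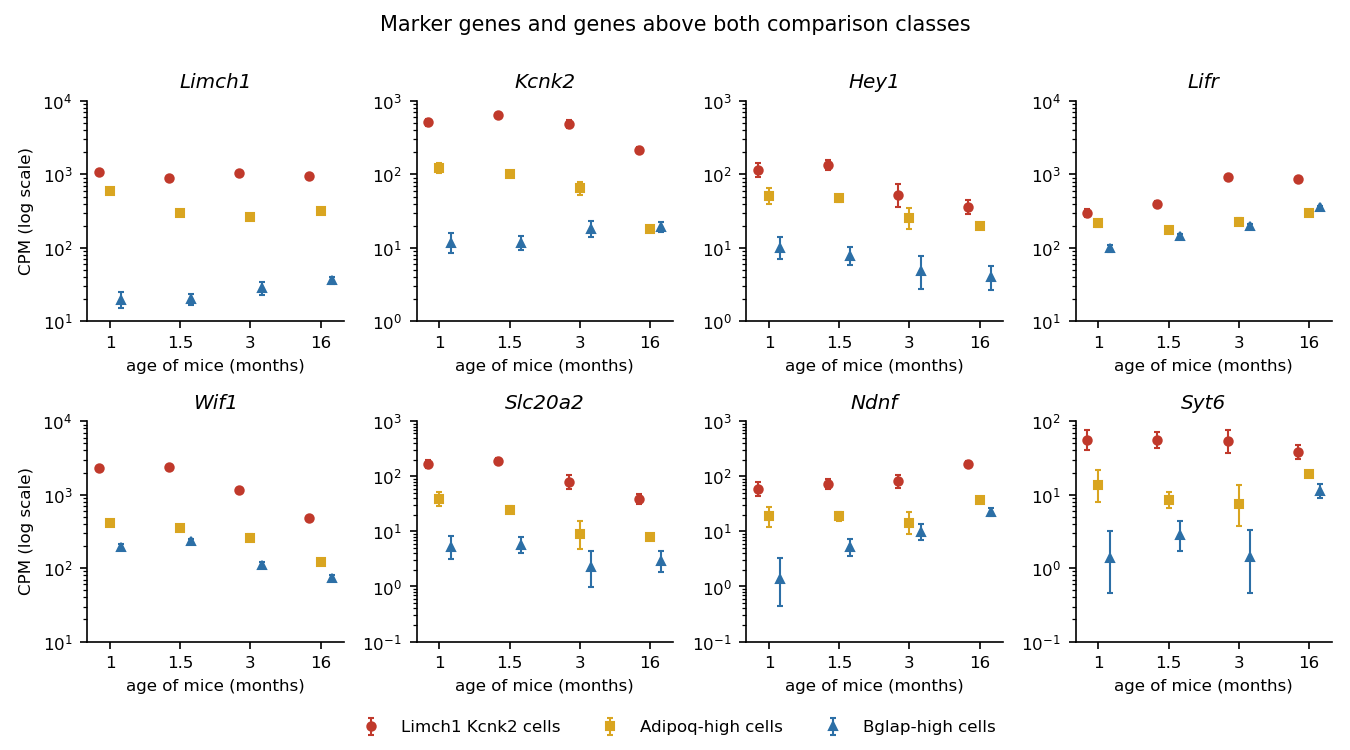
CPM (log scale) of 8 genes against age in months, for Limch1 Kcnk2 cells (circles), Adipoq-high cells (squares) and Bglap-high cells (triangles). Points are the sums of 1 library and bars are 95% Poisson intervals of the counts. In every panel the circles lie above the other symbols, and Wif1, Kcnk2 and Slc20a2 are lowest at 16 months in the Limch1 Kcnk2 cells.

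A gene was called higher or lower when its ratio passed 2-fold in the same direction in all 4 libraries, among genes with a mean of at least 20 CPM. Against Adipoq-high cells 54 of 5634 genes were higher (0.958%) and 31 lower (0.550%), with a median ratio of 1.03. Without the 1 month library 87 were higher, and without the 16 month library 97 were lower. Against Bglap-high cells 896 of 4997 genes were higher (17.9%) and 102 lower (2.04%), with a median ratio of 1.58. Centred on that median, an alternative chosen after seeing the data, the split was 379 higher and 254 lower. Bglap-high cells held a few matrix genes at very high levels, and their median UMIs of 17469, 15252, 10148 and 26911 exceeded those of the Limch1 Kcnk2 cells. The choice used both contrasts, and these counts are a description.

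Of the 4846 genes tested in both contrasts, 13 were higher in Limch1 Kcnk2 cells than in both classes (0.268%), and 0 were lower than in both. Without the 16 month library 22 were higher than in both. Wif1 and Kcnk2 are among the 13. The others were Slc20a2, Syt6, Ndnf, Ccdc3, Nav2, Pi15, Mest, S100b, Timp3, Sh3bp4 and Fgfr3.

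Slc20a2, a sodium-dependent phosphate transporter, stood at 169 CPM at 1 month, 188 CPM at 1.5 months, 79.1 CPM at 3 months and 38.6 CPM at 16 months. Adipoq-high cells had 38.8, 24.8, 8.96 and 7.92 CPM and Bglap-high cells 5.29, 5.75, 2.25 and 2.92 CPM of Slc20a2, a ratio to the former of 4.37- to 8.83-fold. The level was lowest at 16 months in both the Limch1 Kcnk2 and the Adipoq-high cells. Ndnf, a secreted neurotrophic factor, stood at 60.0 CPM at 1 month, 73.5 CPM at 1.5 months, 82.3 CPM at 3 months and 171 CPM at 16 months against 19.0, 18.7, 14.5 and 37.9 CPM in Adipoq-high and 1.39, 5.18, 9.84 and 22.7 CPM in Bglap-high cells, and it was highest at 16 months. Syt6, a synaptotagmin of membrane traffic, stood at 56.0, 55.8, 53.8 and 38.6 CPM against 13.5, 8.55, 7.58 and 19.0 CPM and 1.39, 2.80, 1.41 and 11.1 CPM. Its ratio to Adipoq-high cells was 2.03- to 7.10-fold, with the smallest at 16 months.

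The remaining 8 genes span matrix, growth factor and cytoskeletal roles. Timp3, an inhibitor of metalloproteinases held in the matrix, had 252, 319, 484 and 395 CPM, against 96.6, 147, 181 and 99.0 CPM in Adipoq-high cells. Fgfr3, a receptor for fibroblast growth factors that restrains bone growth, had 79.5, 105, 98.1 and 61.3 CPM, against 37.2, 45.0, 33.8 and 24.9 CPM. S100b, a calcium-binding protein, had 258, 326, 435 and 262 CPM, against 123, 103, 111 and 95.03 CPM. Each of these 3 varied less than 2-fold over the ages in the Limch1 Kcnk2 cells. Mest, an imprinted gene, varied most, with 79.5, 81.1, 14.2 and 6.43 CPM against 26.1, 17.6, 4.82 and 2.65 CPM. Pi15, a secreted protein of the CAP family, had 171, 33.8, 30.1 and 42.4 CPM and was highest at 1 month. Nav2, which acts in neuron guidance, had 154, 93.8, 99.7 and 47.6 CPM, Ccdc3, a secreted protein, had 71.7, 92.1, 93.4 and 91.7 CPM, and Sh3bp4, which acts in endocytosis, had 52.1, 49.9, 39.6 and 39.0 CPM. All 8 exceeded their level in Adipoq-high cells by at least 2-fold at each age.

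**Figure D2:**
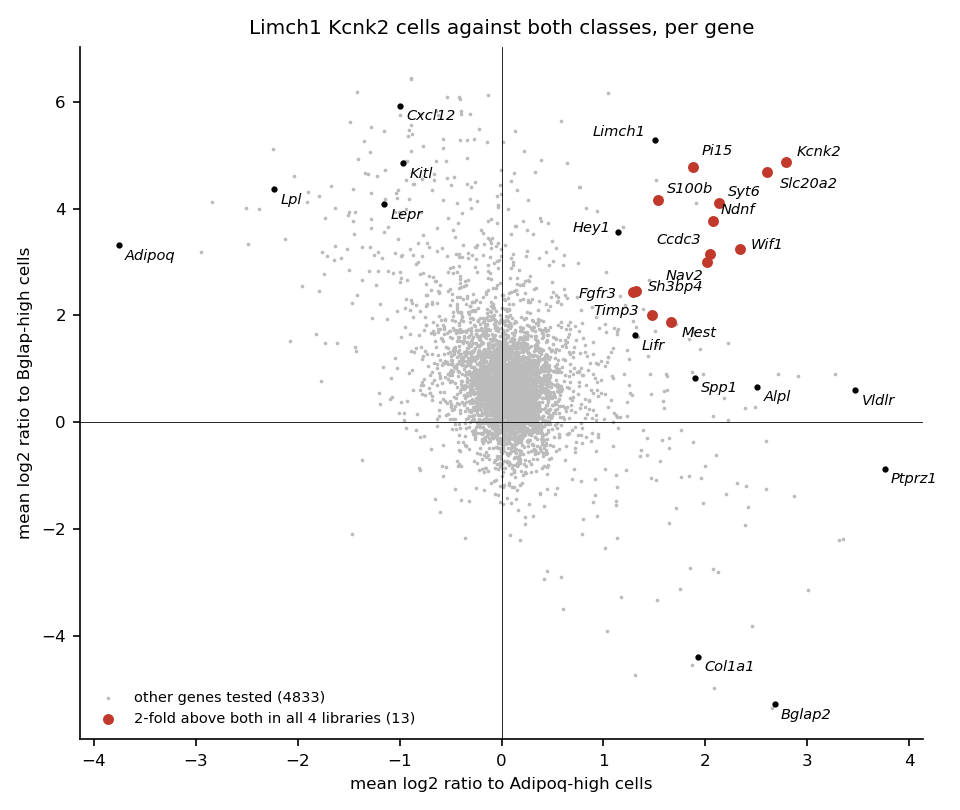
Mean log2 ratio over the 4 libraries of Limch1 Kcnk2 cells to Adipoq-high cells (horizontal) and to Bglap-high cells (vertical), 1 point per gene. The 13 genes at least 2-fold above both classes in every library are drawn larger at the upper right, Adipoq and Lpl lie at the upper left, and Bglap2 and Col1a1 at the lower right.

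The 10 genes with the highest mean ratio to Adipoq-high cells included several that Bglap-high cells carried too. Ptprz1, a receptor phosphatase, had 41.7, 45.6, 47.5 and 59.1 CPM against 3.96, 6.41, 1.38 and 3.40 CPM in Adipoq-high and 73.4, 81.1, 82.1 and 126 CPM in Bglap-high cells. Vldlr, a receptor for very low density lipoprotein and reelin, had 50.8, 39.7, 66.5 and 36.4 CPM against 3.17, 5.74, 2.76 and 5.20 CPM and 27.3, 31.8, 29.8 and 36.4 CPM. Mgll, which cleaves monoglycerides, had 39.1, 31.3, 55.4 and 39.0 CPM against 4.75, 4.81, 3.45 and 3.32 CPM and 16.1, 21.6, 20.8 and 30.8 CPM. For these 3 genes the Limch1 Kcnk2 cells were by ratio closer to Bglap-high than to Adipoq-high cells at every age. Cpe, carboxypeptidase E, had 202, 371, 372 and 118 CPM, against 20.6, 94.95, 25.5 and 6.51 CPM in Adipoq-high and 1037, 1476, 1389 and 693 CPM in Bglap-high cells. Car3, a carbonic anhydrase, had 162, 469.9, 559 and 113 CPM, against 21.4, 62.2, 60.0 and 14.0 CPM and 1927, 2795, 2885 and 1875 CPM, so that for these latter genes the Limch1 Kcnk2 cells lay between the classes. Rapsn, known for clustering acetylcholine receptors, had 23.5, 21.1, 71.2 and 31.7 CPM, with at most 3.36 CPM in Adipoq-high cells and at most 3.09 in Bglap-high cells. Ppfibp2, Cadm1, Kcnk2 and Spata13 complete the 10.

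The 10 lowest against Adipoq-high cells were Adipoq itself, Cbln1, Pla1a, Fmo2, Podn, Gm9780, Igfbp3, Itih5, Il34 and Epb41l4b. Igfbp3, which binds insulin-like growth factors, had 26.1, 98.9, 23.7 and 105 CPM against 203, 483, 310.1 and 238 CPM. Cbln1, a secreted cerebellin, had 20.9, 9.30, 1.58 and 36.4 CPM against 83.1, 133, 107 and 194 CPM, and Fmo2, a flavin monooxygenase, 11.7, 2.54, 3.17 and 176 CPM against 32.4, 58.0, 78.6 and 444 CPM. All 3 were below Adipoq-high cells at each age, and Fmo2 approached them most at 16 months. The 10 highest against Bglap-high cells were Gm16685, Csmd1, Kng1, Col8a1, Fmo1, Wdr86, Fbln5, Aldh1a2, Cxcl12 and Ebf3. Col8a1, a short-chain collagen, had 1778, 1081, 848 and 527 CPM, against 943, 340.4, 463 and 317 CPM in Adipoq-high and 14.5, 19.2, 11.5 and 10.1 CPM in Bglap-high cells. Fbln5, an elastic fibre protein, had 835, 1023, 695 and 1119 CPM, against 1045, 1399, 1128 and 1288 CPM and 4.17, 27.5, 8.72 and 29.9 CPM. None of these 10 was called higher than in Adipoq-high cells.

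Osteogenic transcription factors mostly stood above their level in Adipoq-high cells, with a ratio over 1 for 8 of 10 tested. Of these, 3 were higher and 0 lower in every library, with a median ratio of 1.71. These were Sp7, Dlx6 and Mef2c. Sp7, which is needed for osteoblast formation, stood at 71.7 CPM (54.0 to 93.3) at 1 month, 105 CPM (87.2 to 125) at 1.5 months, 87.1 CPM (65.6 to 113) at 3 months and 57.0 CPM (47.7 to 67.6) at 16 months. Adipoq-high cells had 29.3, 31.8, 19.98 and 20.8 CPM and Bglap-high cells 87.6, 120.0, 98.2 and 83.4 CPM of Sp7, so that the Limch1 Kcnk2 cells lay nearer to the Bglap-high level. Mef2c stood at 164, 155, 256 and 185 CPM, against 57.8, 48.9, 26.9 and 34.5 CPM in Adipoq-high and 414, 431, 484 and 569 CPM in Bglap-high cells. Dlx6, a homeobox factor, stood at 61.3, 37.2, 38.0 and 26.6 CPM, against 22.2, 16.6, 8.96 and 12.8 CPM and 22.5, 17.0, 12.9 and 15.1 CPM, and its partner Dlx5 at 160.3, 206, 117 and 97.3 CPM, against 92.6, 144, 66.8 and 43.4 CPM and 46.5, 69.4, 48.7 and 43.8 CPM. Dlx5 was the only factor of the 9 tested that was higher than in Bglap-high cells, and after centring 0 were higher and 1 lower. Runx2 stood at 154, 137, 256 and 333 CPM, against 123, 115, 141 and 200.01 CPM and 72.6, 75.3, 99.0 and 159 CPM.

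Genes of bone matrix and mineral spread out more. Of 17 tested, 4 were higher than in Adipoq-high cells and 0 lower, with a median ratio of 3.80. Against Bglap-high cells 11 of 18 were lower and 0 higher, with a median ratio of 0.172. Bglap2, on which the Bglap-high cells were chosen, is among the 11, as are its near-identical neighbours Bglap and Bglap3. Alpl, the phosphatase that releases phosphate for mineral, stood at 979 CPM at 1 month, 752 CPM at 1.5 months, 560.3 CPM at 3 months and 360.4 CPM at 16 months. In Adipoq-high cells Alpl was at 299.9, 148, 77.2 and 41.0 CPM, a ratio of 3.26- to 8.80-fold, and in Bglap-high cells at 477, 459, 516 and 209 CPM. The Limch1 Kcnk2 cells thus stood above the Bglap-high cells in CPM of Alpl at every age, by 1.09- to 2.05-fold. The median gene tested was itself 1.60-, 1.65-, 1.53- and 1.52-fold above Bglap-high cells, so the range for Alpl spans the shift of a typical gene. Spp1, osteopontin, stood at 4821 CPM at 1 month, 8742 CPM at 1.5 months, 19309.5 CPM at 3 months and 12631 CPM at 16 months, against 1461, 3073, 3448 and 3459 CPM in Adipoq-high and 7264, 4995, 4832 and 5764 CPM in Bglap-high cells, with 756, 1388, 367 and 1187 CPM in Ptprc-positive cells. Summed over cells it exceeded Bglap-high cells at 1.5, 3 and 16 months but not at 1 month. Single cells were skewed, with a median of 29.0, 56.1, 98.7 and 45.9 Spp1 UMIs per 10000 and a maximum of 290.3, 872, 1139 and 1552. Cadm1, an adhesion molecule, had 87.3, 98.0, 214 and 102 CPM and Omd, osteomodulin, 160.3, 166, 34.8 and 56.6 CPM, against 20.6, 26.4, 12.4 and 9.27 CPM and 22.2, 22.7, 8.27 and 16.3 CPM in Adipoq-high cells.

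The late genes of the osteoblast were low. Col1a1, the main bone collagen, stood at 2652, 3624, 1855 and 4261 CPM, against 56615, 65477, 46694 and 82675 CPM in Bglap-high cells and 1311, 703, 379 and 1721 CPM in Ptprc-positive cells. Bglap2, one of the osteocalcin genes, stood at 665, 978, 2643 and 1307 CPM, against 171, 681, 181 and 62.5 CPM in Adipoq-high and 624, 374, 206 and 144 CPM in Ptprc-positive cells. At 1 month that level was at the background of free RNA, while at 3 and 16 months it was well above it. Reads of Bglap, Bglap2 and Bglap3 may be split among these near-identical genes. Ifitm5, which osteoblasts make as they mineralize, stood at 10.4, 37.2, 83.9 and 35.6 CPM, against 1067, 742, 839.8 and 541 CPM in Bglap-high cells, and Smpd3, a sphingomyelinase of mineralization, at 7.82, 99.7, 68.1 and 19.7 CPM, against 358, 316, 674 and 584 CPM. Ibsp, bone sialoprotein, did not separate the classes, with 967, 1887, 3639 and 3016 CPM, 2049, 3873, 3257 and 2381 CPM in Adipoq-high and 2220.2, 2775, 4210.1 and 3329 CPM in Bglap-high cells.

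A short sequence shared by the promoters was looked for as a description. The motif was TGTGGT, bound by Runx factors, on both strands, in the 250 bases before each RefSeq start (GRCm38.p6). It was found in 4614 of all 32851 windows (14.0%). Of the 13 genes above both classes, 10 had a window and 0 of these held the motif. These are shares of windows, whereas a gene can have several windows and is counted once. Of the bone matrix and mineral genes 5 of 16 with a window (23 windows) held it (Bglap, Cdh15, Dmp1, Mepe and Spp1), and of the adipocyte and lipid genes 3 of 16 (24 windows). The window before the first start of Spp1, the bone matrix gene with the motif that was also higher than in Adipoq-high cells, is shown with the motif in capitals as its reverse complement, 128 bases before the start, on chr5:104434861-104435110, plus strand.
Spp1: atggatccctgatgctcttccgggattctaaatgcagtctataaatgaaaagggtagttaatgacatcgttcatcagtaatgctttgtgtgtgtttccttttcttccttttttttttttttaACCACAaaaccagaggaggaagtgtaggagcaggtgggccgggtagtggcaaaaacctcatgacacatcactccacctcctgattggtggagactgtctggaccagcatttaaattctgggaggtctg

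Osteocyte genes were present at low levels. None of the 3 tested was called against Adipoq-high cells, and 3 of 4 were lower than in Bglap-high cells. Dmp1, a matrix protein of osteocytes, stood at 152, 92.1, 263 and 69.0 CPM, against 7.12, 100.3, 4.13 and 7.04 CPM in Adipoq-high and 541, 1155, 606 and 286 CPM in Bglap-high cells. Sost, the defining osteocyte gene, was at 7.82, 0, 0 and 0.857 CPM, and the 6 UMIs at 1 month came from 1 of the 89 cells. Entpd3, Prss35, Cpz, Cthrc1, Cgref1, Lipc and Kcnk1 complete, with the 3 osteocalcin genes, the 10 lowest against Bglap-high cells. Of these, Cthrc1, a collagen-associated secreted protein, had 19.5, 71.0, 15.8 and 14.6 CPM, against 881, 684, 532 and 527 CPM, and Cpz, a carboxypeptidase, 20.9, 16.1, 14.2 and 6.0 CPM, against 506, 499, 371 and 297 CPM. Kcnk1, another potassium channel of the family of Kcnk2, had 1.30, 4.23, 7.91 and 5.57 CPM, against 116, 121, 106 and 94.8 CPM.

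After thinning to 3000 UMIs, Cebpa, an adipogenic factor, was found in 38.2, 42.1, 42.9 and 48.6% of the Limch1 Kcnk2 cells, against 7.33, 20, 10.8 and 13.0% of Ptprc-positive cells. Pparg was found in 11.2, 10, 1.30 and 12% of the Limch1 Kcnk2 cells, against 1.06, 0, 5.05 and 3.71% of Ptprc-positive cells, so that at 3 months it was not above that class. In Bglap-high cells Cebpa was found in 1.97, 4.48, 4.66 and 3.26% and Pparg in 0, 0, 0 and 0.362%. Of 10 adipogenic factors tested against Adipoq-high cells, 0 passed 2-fold in all libraries in either direction, and the median ratio was 0.792. Against Bglap-high cells 5 of 7 were higher and 0 lower. Cebpa stood at 164 CPM (137 to 196) at 1 month, 188 CPM (165 to 215) at 1.5 months, 171 CPM (140.2 to 206) at 3 months and 229.7 CPM (211 to 250.02) at 16 months, against 203, 329.6, 285 and 319 CPM in Adipoq-high and 8.35, 10.5, 10.7 and 12.6 CPM in Bglap-high cells. Pparg, the master regulator of fat, was sparse, at 35.2 CPM (23.2 to 51.2) at 1 month, 26.2 CPM (17.8 to 37.2) at 1.5 months, 7.91 CPM (2.57 to 18.5) at 3 months and 38.6 CPM (31.0 to 47.4) at 16 months. Adipoq-high cells had 71.2, 73.7, 55.8 and 63.9 CPM of Pparg and Bglap-high cells 0.556, 0.420, 0.281 and 1.73 CPM. Ebf1, an early B-cell factor that acts in stromal and fat cells, stood at 833, 689, 578 and 649.7 CPM, against 769, 803, 779 and 794 CPM and 60.1, 43.7, 46.4 and 80.8 CPM. Ebf3, which maintains the marrow niche, stood at 130.3, 174, 141 and 460.3 CPM, against 197, 251, 274 and 662 CPM and 1.11, 6.45, 0.844 and 17.9 CPM, and Foxc1 at 123, 153, 237 and 371 CPM, against 146, 191, 274 and 439.9 CPM and 11.1, 23.7, 32.1 and 41.3 CPM.

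Adipocyte and lipid genes mostly lay between the classes. Of 16 tested, 8 were lower than in Adipoq-high cells and 0 higher, with a median ratio of 0.381. Adipoq itself, which the choice capped, is among the 8. Against Bglap-high cells 14 of 16 were higher, with a median ratio of 21.2, and 13 were so after centring. Lpl, lipoprotein lipase, stood at 583 CPM (529.8 to 639) at 1 month, 446 CPM (409 to 486) at 1.5 months, 271 CPM (232 to 314) at 3 months and 1335 CPM (1288 to 1382) at 16 months. Adipoq-high cells had 2833, 2584, 1944 and 3206 CPM and Bglap-high cells 12.2, 41.5, 24.2 and 42.5 CPM of Lpl. The Limch1 Kcnk2 cells lay between at every age and were highest at 16 months. Hp, haptoglobin, stood at 1314, 1486, 1489 and 3002 CPM, against 4351, 6806, 8614 and 6786 CPM and 92.1, 124, 65.8 and 123 CPM. Kng1 and Il1rn, a kininogen and an interleukin-1 antagonist, had 181, 179, 180.4 and 214 CPM and 166, 247, 69.6 and 67.3 CPM, against 459.8, 511, 556 and 494 CPM and 589.6, 555, 752 and 224 CPM in Adipoq-high cells. Plin1 and Cidec, which coat the large lipid droplets of mature fat cells, were nearly undetected, with Plin1 at 0, 0, 9.50 and 0.429 CPM and Cidec at 0, 0, 1.58 and 0 CPM.

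**Figure D3:**
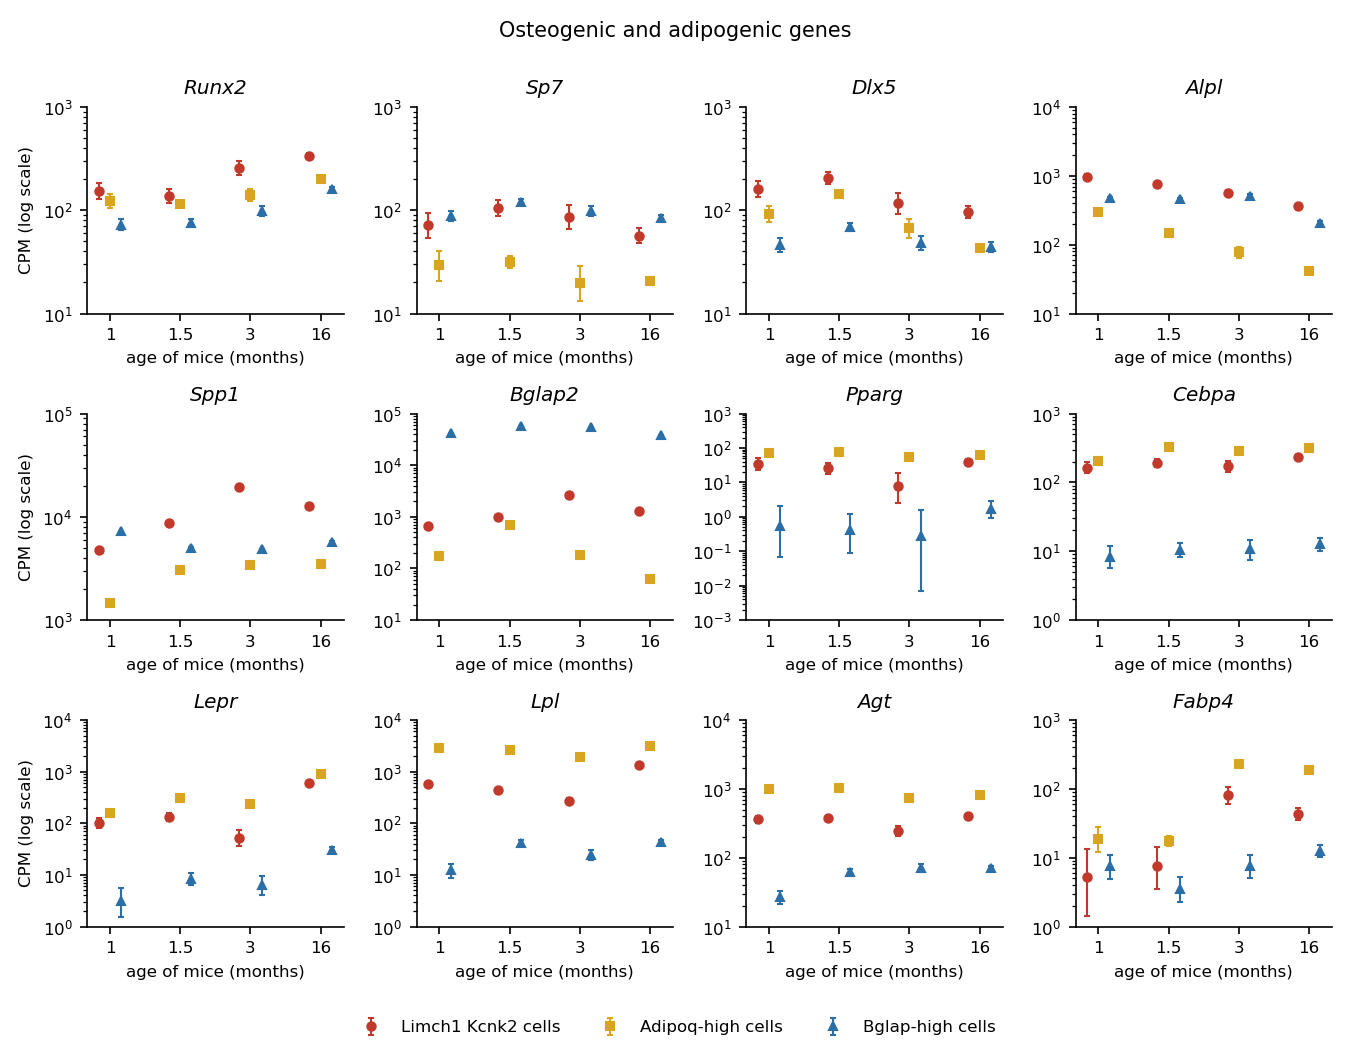
CPM (log scale) of 12 osteogenic and adipogenic genes against age in months, in Limch1 Kcnk2 cells (circles), Adipoq-high cells (squares) and Bglap-high cells (triangles), with 95% Poisson intervals of the counts. Sp7 and Alpl in the circles are near or above the triangles, whereas Pparg, Cebpa, Lpl and Agt are nearer the squares.

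Within single cells, genes of both fates were found side by side, in Limch1 Kcnk2 and in Adipoq-high cells alike. The part of free RNA in the sums that follow was not tested. The UMIs of 31 osteogenic genes (without the osteocalcin genes) and of 35 adipogenic genes (without Adipoq) were summed per cell and scaled to 10000 UMIs. The median Limch1 Kcnk2 cell had 148, 218, 259 and 155 osteogenic UMIs per 10000, beside 126, 161, 125 and 113 in Adipoq-high and 1638, 1785, 1544 and 2004 in Bglap-high cells. It had 104, 160.2, 123 and 229 adipogenic UMIs per 10000, beside 228, 344, 329.9 and 331 in Adipoq-high and 18.6, 24.5, 18.1 and 21.3 in Bglap-high cells. Between the medians of both classes lay 62 of 89, 110 of 140, 73 of 82 and 139 of 178 cells for the osteogenic sum. For the adipogenic sum it was 88 of 89, 140 of 140, 81 of 82 and 160 of 178 cells. Cells of a comparison class on the side of its own median that faces the other class can fall in the same range. These counts alone therefore show no intermediate state. By ratio, both medians were nearer to those of the Adipoq-high cells at each age. A few cells reached high osteogenic sums, with a maximum of 1593, 1428, 1311 and 1957 per 10000.

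A UMI of Runx2 or Sp7 together with a UMI of Pparg, Cebpa or Lepr was sought in each cell after thinning to 3000 UMIs. It was found in 24 of 89 cells at 1 month, 27.0% (18.1 to 37.4), and in 47 of 140 at 1.5 months, 33.6% (25.8 to 42.0). At 3 months it was found in 20 of 77 cells, 26.0% (16.6 to 37.2), and at 16 months in 96 of 175, 54.9% (47.2 to 62.4). In Adipoq-high cells the shares were 27.3, 30.3, 29.3 and 43.6%, within the interval of the Limch1 Kcnk2 cells at the first 3 ages and below it at 16 months. At 2000 UMIs that difference was not kept, since at 16 months 38.6% (31.4 to 46.3) of Limch1 Kcnk2 and 32.0% of Adipoq-high cells held both. In Bglap-high cells they were 0.985, 4.04, 4.04 and 5.43%, and in Ptprc-positive cells 0.438% of 2741, 0 of 15, 2.02% of 297 and 4.77% of 377. Cells with an osteogenic regulator alone made up 21.3, 20, 23.4 and 10.3% of the Limch1 Kcnk2 cells, against 8.48, 4.31, 5.72 and 1.52% of the Adipoq-high cells. Other cells lay within the same limits of Cxcl12, Adipoq, Ptprc and Cdh5 but outside the choice. In the share with an osteogenic regulator alone they were close to the Limch1 Kcnk2 cells at the 2 youngest ages. Among them 7 of 43 (16.3%) held an osteogenic regulator alone at 1 month and 27 of 144 (18.8%) at 1.5 months. Both kinds were found in 4 of 43 (9.30%) and 30 of 144 (20.8%) of them, below the interval of the Limch1 Kcnk2 cells at these ages. Without Lepr, the shares of Limch1 Kcnk2 cells with both were 22.9% at 1.5 months and 35.4% at 16 months.

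**Figure D4:**
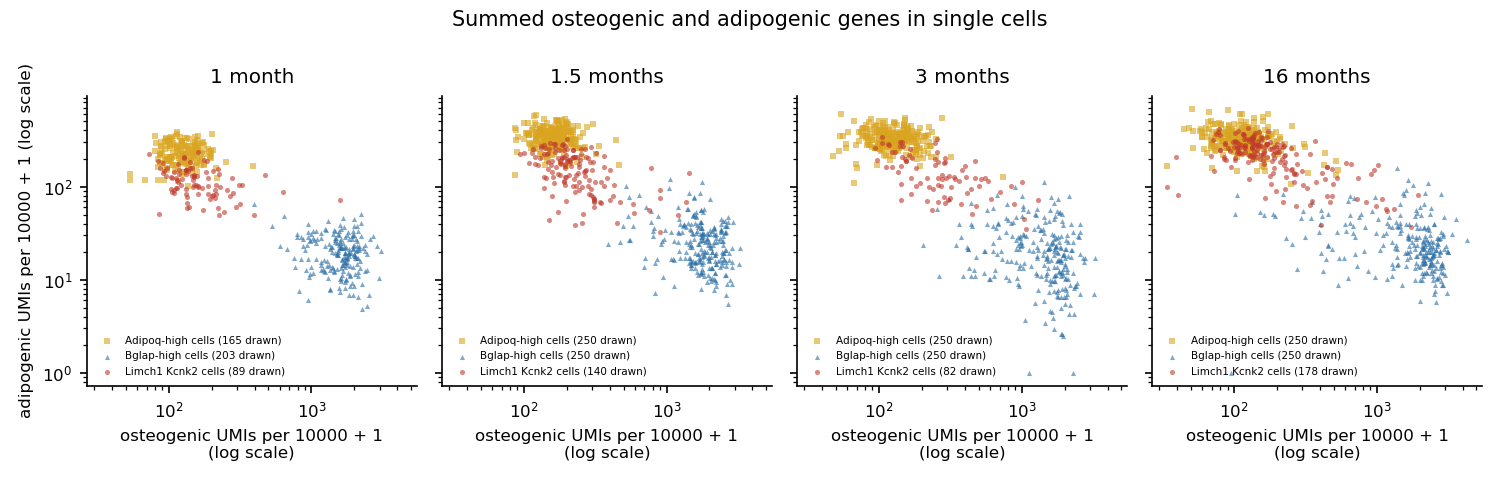
Adipogenic against osteogenic UMIs per 10000 plus 1 in single cells, both on log scales, with 1 panel per library and at most 250 cells drawn per class. Limch1 Kcnk2 cells (circles) spread from the Adipoq-high cells (squares) at the upper left towards the Bglap-high cells (triangles) at the lower right.

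The Limch1 Kcnk2 cells also varied among themselves along the Adipoq limit. Those with no Adipoq UMI numbered 47, 44, 56 and 51, and those with at least 1 numbered 42, 96, 26 and 127. Wif1 stood above in the former at each age, at 2820.0, 3076, 1294 and 656 CPM against 1837, 2150.1, 807 and 415 CPM. Lpl stood below in the former at each age, at 325, 194, 186 and 468 CPM against 819, 535, 484 and 1617 CPM. Alpl stood at 1004, 953, 644 and 634 CPM in cells without an Adipoq UMI against 956, 681, 351 and 272 CPM in the others. Spp1 was near equal at 1 month and stood above in cells without Adipoq UMIs at the other ages, at 4797, 13766, 23304 and 25803 CPM against 4843, 6970.4, 9256 and 8345 CPM. Kitl, in contrast, stood above in the cells with an Adipoq UMI, at 325, 303, 451 and 1416 CPM against 164, 263, 289.8 and 949.8 CPM. Whether an Adipoq UMI is seen also depends on depth, whose part in these values was not tested.

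Several genes of the niche for blood cells, among them Cxcl12, Kitl, Csf1 and Vcam1, lay between the classes at each age, while Igf1 and Spp1 stood above both at 3 of the ages. Against Adipoq-high cells 1 of 15 was higher (Spp1) and 2 were lower (Il15 and Il34, both interleukins), with a median ratio of 0.527. Against Bglap-high cells 10 of 13 were higher, Cxcl12 among them, and 0 lower. Cxcl12, the chemokine that retains blood stem cells and on which the choice set a minimum, stood at 9333, 12167, 9635 and 17752 CPM, against 17771, 26601, 24796 and 26329 CPM in Adipoq-high and 51.7, 419, 128 and 509 CPM in Bglap-high cells. Kitl, stem cell factor, stood at 248 CPM (214 to 285) at 1 month, 292 CPM (262 to 325) at 1.5 months, 336 CPM (292 to 384) at 3 months and 1302 CPM (1256 to 1349) at 16 months. Kitl in Adipoq-high cells was at 578, 685, 723 and 1627 CPM and in Bglap-high cells at 5.29, 15.3, 10.7 and 50.7 CPM. Vcam1, an adhesion molecule of stromal cells, stood at 403, 437, 502 and 1473 CPM, against 951, 1645, 1271 and 1947 CPM and 8.90, 25.1, 29.8 and 54.8 CPM. Tnfsf11, which drives osteoclast formation, stood at 215, 258, 152 and 142 CPM, against 526, 434, 198 and 97.4 CPM and 3.62, 14.0, 8.44 and 8.10 CPM. Igf1, a growth factor, stood at 1099, 651, 218 and 216 CPM, against 747, 406, 265 and 142 CPM and 21.1, 29.4, 12.1 and 5.44 CPM.

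For signaling pathways, as for the other lists, counts are to be read beside the shares over all genes, which were 0.958% higher against Adipoq-high and 17.9% higher against Bglap-high cells. Of the Notch pathway, 0 of 10 genes were called against Adipoq-high cells and 6 of 8 were higher than in Bglap-high cells, 4 after centring. Notch3, a receptor, stood at 56.0, 65.1, 53.8 and 136 CPM, against 77.6, 75.2, 113 and 188 CPM and 0.556, 2.66, 1.97 and 8.76 CPM, and Jag1, a ligand, at 44.3, 56.6, 34.8 and 49.7 CPM, against 23.7, 24.6, 37.9 and 36.6 CPM and 3.06, 10.2, 11.0 and 12.3 CPM. Hes1, a target like Hey1, stood at 305, 402, 445 and 580.3 CPM, against 366, 631, 657 and 847 CPM and 88.7, 162, 179 and 147 CPM. Hey1 was thus above the Adipoq-high level at each age while Hes1 was below it at each age.

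Of the receptor family of gp130, 0 of 8 genes were called against Adipoq-high cells and 6 of 8 were higher than in Bglap-high cells, but 1 after centring. Il6st, gp130 itself, stood at 87.3, 80.3, 135 and 230.2 CPM, against 104, 93.2, 147 and 210.2 CPM in Adipoq-high cells, and Osmr, the oncostatin M receptor, at 19.5, 42.3, 66.5 and 91.3 CPM, against 54.6, 40.1, 68.9 and 102 CPM. Lifr stood above the Adipoq-high level at each age, while Il6st did so at 16 months and Osmr at 1.5 months alone. Among secreted Wnt inhibitors, 1 of 4 was higher than in Adipoq-high cells (Wif1) and 0 lower, and against Bglap-high cells 2 of 5 were higher and 1 lower. Sfrp4 stood at 282, 286, 119 and 326 CPM, against 867, 1116, 928 and 543 CPM in Adipoq-high cells, and Sfrp1 at 248, 213, 207 and 259 CPM, against 410.0, 293, 238 and 255 CPM. Dkk1, the inhibitor that was lower than in Bglap-high cells, stood at 2.61, 2.54, 4.75 and 4.71 CPM, against 48.1, 52.3, 35.4 and 25.4 CPM. Targets of Wnt signaling were sparse, with Axin2 at 3.91, 3.38, 3.17 and 6.43 CPM and Lef1 at 6.52, 12.7, 7.91 and 2.14 CPM. Of these targets 0 of 3 tested were called against Adipoq-high cells, and 1 of 3 (Bambi) was lower than in Bglap-high cells.

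Of Wnt ligands and R-spondins, 0 of 3 were called against Adipoq-high and 2 of 4 were higher than in Bglap-high cells. Rspo3, which amplifies Wnt signals, stood at 382, 185, 177 and 184 CPM, against 396, 194, 146 and 142 CPM and 4.45, 4.62, 8.16 and 3.45 CPM, and Rspo2 at 44.3, 51.5, 25.3 and 105 CPM, against 76.0, 94.7, 77.9 and 132 CPM and 0.278, 1.54, 0.281 and 4.51 CPM. Of the BMP pathway, 0 of 20 were called against Adipoq-high cells, and against Bglap-high cells 7 of 21 were higher and 2 lower. Bmp3, an antagonist of the family that bone cells make, was among the lower, at 7.82, 26.2, 53.8 and 56.6 CPM against 75.4, 122, 127 and 214 CPM. Grem1, a BMP antagonist, was among the higher, at 145, 149.6, 214 and 515 CPM against 376, 375, 350.1 and 779 CPM in Adipoq-high and 1.39, 6.03, 1.41 and 20.3 CPM in Bglap-high cells.

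Of the 14 potassium channels of the family of Kcnk2, Kcnk1 was the highest after Kcnk2 in the Limch1 Kcnk2 cells at 3 and 16 months, with the values given above. Genes of actomyosin and stress fibres, the structures on which Limch1 acts, gave 0 of 19 called against Adipoq-high cells, with a median ratio of 1.09. Against Bglap-high cells 11 of 19 were higher, 4 after centring. Limch1 itself, which the choice used, is among the 11 and the 4. Myl9, a myosin light chain, stood at 571, 344, 206 and 141 CPM, against 502, 249.2, 230.2 and 142 CPM and 6.68, 13.5, 18.6 and 7.83 CPM, and Tpm1, a tropomyosin, at 1959, 1601, 1964 and 2073 CPM, against 1466, 1057, 1130.2 and 1405 CPM and 492, 581, 868 and 992 CPM. Of cell junction genes, 0 of 7 were called against Adipoq-high and 3 of 8 were higher than in Bglap-high cells. Ncam1, an adhesion molecule, stood at 169, 235, 309 and 410.2 CPM, against 101, 72.2, 54.4 and 67.1 CPM and 50.1, 60.3, 104 and 146 CPM, with a ratio to Adipoq-high cells of 1.69- to 6.11-fold.

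Proposed stem cell markers gave 1 of 11 higher than in Adipoq-high cells (Sp7) and 7 of 10 higher than in Bglap-high cells. Cxcl12, on which the choice set a minimum, is among the 7. Lepr, the leptin receptor that marks marrow stroma, stood at 103 CPM (81.5 to 128) at 1 month, 133 CPM (113 to 155) at 1.5 months, 52.2 CPM (36.0 to 73.4) at 3 months and 597 CPM (566 to 629.7) at 16 months, against 159, 307, 235 and 919.9 CPM and 3.06, 8.41, 6.47 and 30.1 CPM. Early progenitor genes were close to absent, with Ly6a (Sca1) at 6.52, 24.5, 6.33 and 3.43 CPM, Cd34 at 3.91, 0.845, 3.17 and 2.14 CPM and Thy1 at 0, 2.54, 0 and 0.429 CPM. Gsn, gelsolin and the 1 early progenitor gene tested, was not called. Of the late progenitor genes 1 of 4 was higher than in Adipoq-high cells, Postn, a matrix protein of the periosteum, at 162, 389, 226 and 208 CPM against 41.2, 81.3, 73.0 and 12.2 CPM. Against Bglap-high cells 0 of 5 were called.

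Genes of dividing cells were found in a minority of the Limch1 Kcnk2 cells. Of the S phase genes 0 of 5 and of the G2/M genes 0 of 3 were called against Adipoq-high cells, although all 3 of the G2/M genes had a ratio above 1, with a median of 3.85. Summed, the 15 G2/M genes reached 378, 240.0, 302 and 99.4 CPM, against 262, 64.5, 35.1 and 50.2 in Adipoq-high and 285, 66.98, 91.7 and 99.4 in Bglap-high cells. The 15 S phase genes summed to 614, 474, 495 and 332 CPM, against 538, 382, 393 and 331 in Adipoq-high cells. Mki67, a gene of dividing cells, was found after thinning in 8 of 89, 4 of 140, 3 of 77 and 2 of 175 cells, that is 8.99, 2.86, 3.90 and 1.14%, and in 25.1, 20, 14.1 and 13.8% of Ptprc-positive cells. Top2a, another gene of dividing cells, was found in 12.4, 3.57, 5.19 and 2.29% of Limch1 Kcnk2 cells, against 6.06, 1.35, 2.02 and 0.925% of Adipoq-high cells. For Top2a the shares lay above those of Adipoq-high cells at each age, but rested on 11, 5, 4 and 4 cells. Mki67 was found in 5.45, 1.44, 1.35 and 1.18% of Adipoq-high cells, so that at 16 months its share was not above theirs. The Mki67 shares lay below those of Ptprc-positive cells, which divide themselves. Immediate early genes gave 0 of 15 called against Adipoq-high cells, and 5 of 15 higher than in Bglap-high cells, 0 after centring.

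RNA of other cell types was present in the sums and differed among libraries. The 8 neutrophil markers summed to 16381, 247, 7539 and 292 CPM, against 14884, 534, 6206 and 254 in Adipoq-high cells. None of these 8 was called against either class. The 9 other blood markers summed to 3533, 205, 665 and 8703 CPM, against 8031, 1659.7, 1129 and 3355 in Adipoq-high cells, and 0 of 5 tested were called. The 6 endothelial markers summed to 80.8, 31.3, 52.2 and 19.7 CPM with Flt1 at 0, 0, 0 and 0.429 CPM, and the 7 mural markers to 151, 181, 169 and 298 with Myh11 at 0, 2.54, 0 and 10.7 CPM. The single endothelial gene tested, Pecam1, and 2 of 3 mural genes, Abcc9 and Notch3, were higher than in Bglap-high cells and none was called against Adipoq-high cells. The 11 chondrocyte markers summed to 555, 7600, 3530 and 535 CPM in Limch1 Kcnk2 cells, to 386, 4137, 800 and 180.3 in Adipoq-high cells and to 758, 3413, 1150 and 65.5 in Ptprc-positive cells, and 0 of 9 were called. The part of this RNA in the other values was not tested.

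At 16 months, 292 of 5743 genes were past 2-fold above all 3 younger libraries (5.08%) and 246 past 2-fold below (4.28%), with a median ratio of 0.931. Without the 3 month library they were 482 and 407. Centred on the median the counts were 279 and 259. Age and library cannot be told apart, since each age is 1 library and the 16 month table was made with another gene list. Gm42418, a transcript that overlaps ribosomal RNA, stood at 296, 154, 180.4 and 18243 CPM in Limch1 Kcnk2 cells and at 137, 93.4, 110.0 and 12904 CPM in Ptprc-positive cells, and Lars2, a mitochondrial leucyl-tRNA synthetase, at 6.52, 11.8, 9.50 and 882 CPM and 5.01, 0, 7.50 and 670.5 CPM. These genes were high at 16 months in blood cells as well. The 8 genes with the highest ratio were Cxcl13, Bmp6, Egr3, Lars2, Gm42418, Jchain, Gm2564 and Sbno2, and the 315 UMIs of Jchain, a plasma cell gene, came from 1 of the 178 cells. The 8 with the lowest were Atp5o, Matn3, Srp54b, Ucma, Scrg1, Col9a1, 3110079O15Rik and Acan, several of them cartilage genes.

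Of the niche factors, 7 of 14 tested were higher at 16 months and 0 lower, beside 5.08% higher over all genes. Immediate early genes, which respond to cell handling, gave 7 of 15 higher in the same library, and their part in these values was not tested. Kitl and Vcam1, given above, were among them. Csf1, the growth factor of macrophages and osteoclasts, stood at 142 CPM (117 to 171) at 1 month, 240.0 CPM (213 to 269.6) at 1.5 months, 231 CPM (195 to 272) at 3 months and 537 CPM (508 to 568) at 16 months, against 214, 346, 329 and 617 CPM in Adipoq-high cells. Il34, which acts on the same receptor, stood at 10.4, 43.9, 45.9 and 112 CPM, against 82.3, 298, 336 and 229 CPM, and Angpt1, angiopoietin, at 40.4, 27.9, 20.6 and 114 CPM, against 108, 85.5, 68.9 and 165 CPM. Cxcl14, a chemokine, stood at 1646, 1267, 1299.5 and 3391 CPM, against 1905, 2483, 2318 and 4098 CPM. Several of these genes also stood highest at 16 months in Adipoq-high cells, although Il34 did not. Lepr was 103, 133, 52.2 and 597 CPM in the Limch1 Kcnk2 cells, and with Ebf3, Grem1 and Pdgfra it is among the 4 of 11 stem cell markers higher at 16 months.

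Of the BMP pathway, 8 of 21 genes were higher at 16 months and 0 lower, beside 5.08% higher over all genes. Bmp6 stood at 2.61 CPM (0.316 to 9.42) at 1 month, 0.845 CPM (0.0214 to 4.71) at 1.5 months, 0 CPM (0 to 5.84) at 3 months and 222 CPM (203 to 242) at 16 months. In Adipoq-high cells Bmp6 stood at 2.37, 4.94, 5.51 and 329 CPM, and in Ptprc-positive cells at 0.0692, 0, 0 and 44.1 CPM. Bmp4 stood at 13.0, 33.0, 49.1 and 231 CPM, against 80.7, 155, 188 and 303 CPM, and Bmp2 at 26.1, 40.6, 30.1 and 98.6 CPM, against 43.5, 48.6, 34.5 and 92.6 CPM. The antagonists Chrdl1, Fst and Grem1 were higher as well, with Chrdl1 at 13.0, 43.1, 30.1 and 407 CPM, against 203, 427, 391 and 792 CPM in Adipoq-high cells, and Fst at 89.9, 117, 88.6 and 389 CPM, against 324, 349, 317 and 516 CPM. The type II receptor Bmpr2 (37.8, 51.5, 61.7 and 145 CPM) and the inhibitory Smad7 (86.0, 129, 116 and 316 CPM) complete the 8. Bmp1, Bmp3 and Bmp5 were not called, and Id1, a target gene, stood at 103, 117, 49.1 and 122 CPM and was not called.

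Adipocyte and lipid genes gave 4 of 16 higher at 16 months and 0 lower (3 after centring), beside 5.08% higher over all genes. They were Lpl, Hp, Lepr and Esm1, an endocan, at 80.8, 155, 206 and 687 CPM. Lpl did not pass 2-fold within cells without an Adipoq UMI (325, 194, 186 and 468 CPM) or within the others (819, 535, 484 and 1617 CPM). The mix of these cells differed among the ages, and its part in the call was not tested. The adipogenic factors gave 1 of 8 higher, Ebf3. The osteogenic factors gave 0 of 10 called and the bone matrix genes 1 of 18 lower, Bglap3. Alpl was at its lowest at 16 months, as in Adipoq-high and Bglap-high cells, and did not pass 2-fold. Of the immediate early genes 6 were higher after centring, with Egr1 at 448, 637, 852 and 2435 CPM in Limch1 Kcnk2 and 562, 779, 1107 and 2691 CPM in Adipoq-high cells. Cxcl13, a chemokine for B cells, stood at 0 CPM at 1 month, 0 CPM at 1.5 months, 1.58 CPM at 3 months and 258 CPM at 16 months, from 27 of the 178 cells at 16 months, and at 0.791, 3.87, 1.38 and 121 CPM in Adipoq-high cells.

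The counts that follow are to be read beside 4.28% lower and 5.08% higher over all genes. The genes lower at 16 months included 4 of the 13 genes above both classes, Wif1, Kcnk2, Slc20a2 and Mest. The choice asked for at least 1 Kcnk2 UMI per cell, so the level of Kcnk2 in the chosen cells also depends on depth, whose part was not tested. Ndnf of the same 13 was higher. The chondrocyte markers gave 7 of 10 lower, and Matn3, a cartilage matrix protein, stood at 10.4, 253, 77.6 and 0 CPM in Limch1 Kcnk2 and 31.0, 116, 23.6 and 0.395 CPM in Ptprc-positive cells. The neutrophil markers gave 3 of 8 lower, and the other blood markers 2 of 5 higher, the hemoglobin genes Hba-a1 and Hbb-bs. Of the mural markers 2 of 3 were higher, Notch3 and Rgs5, and 1 lower, Abcc9. The remaining lists gave few calls. The Notch pathway gave 1 of 11 higher (Notch3), gp130 receptors 0 of 8, Wnt inhibitors 1 of 4 lower (Wif1), Wnt targets 0 of 4 and Wnt ligands 1 of 4 higher (Rspo2). Actomyosin genes gave 3 of 19 higher, junction genes 1 of 8 higher (Cdh11), S phase genes 1 of 8 lower (Mcm6), G2/M genes 1 of 4 lower (Birc5), and the osteocyte, early and late progenitor and endothelial lists none.

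**Figure D5:**
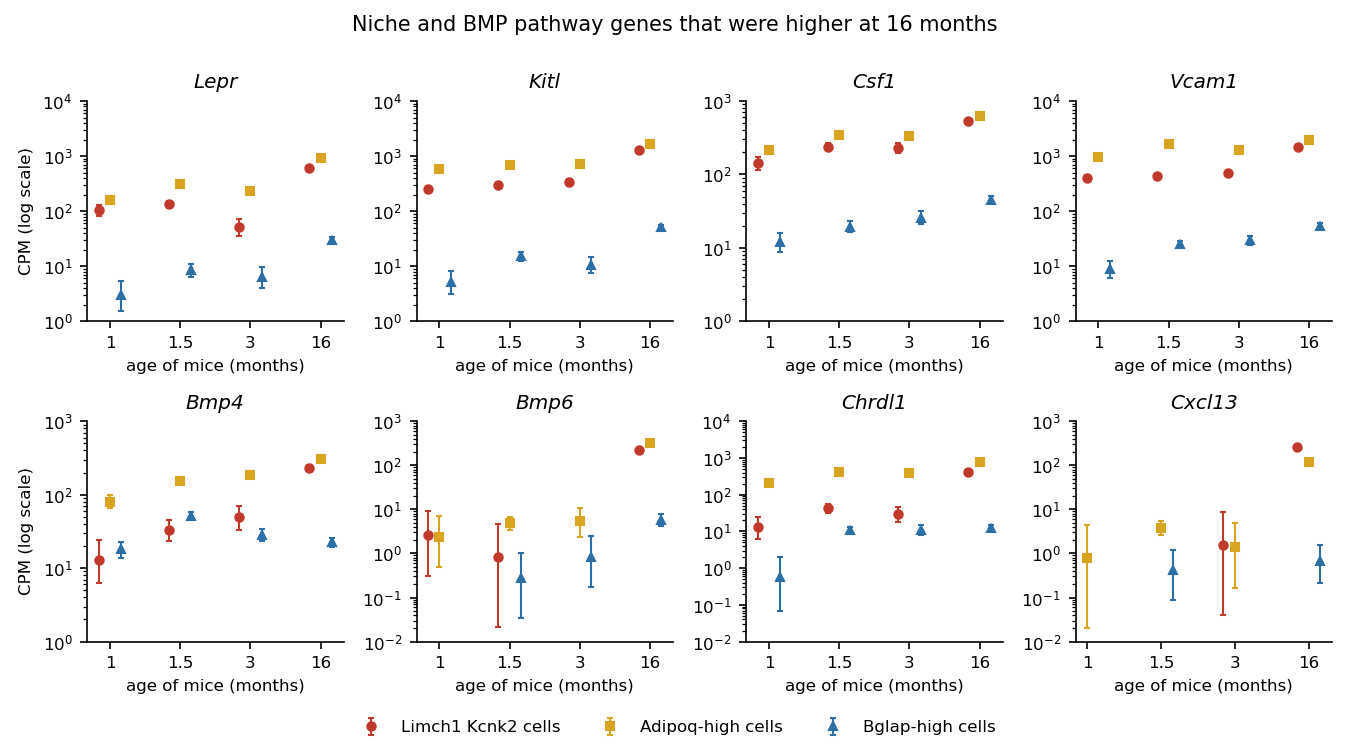
CPM (log scale) of 8 niche and BMP pathway genes against age in months, in Limch1 Kcnk2 cells (circles), Adipoq-high cells (squares) and Bglap-high cells (triangles), with 95% Poisson intervals. Sums with no UMI are not drawn. In each panel the circle at 16 months is the highest of the 4, and for Cxcl13 alone it lies above the square.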

How the data were processed

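The deposited matrices hold UMI counts per gene and cell of sorted Td+ bone marrow cells, 1 library per age. The authors made these counts with Cell Ranger 3.0.2 on mm10 with the reporter added, and the labels also name Seurat 2. Cells were filtered and assigned to classes as described above, no doublet caller was run, and 0 columns were left unused. UMIs were summed per class and library over the 26600 genes shared by the 4 tables and scaled to CPM with exact Poisson intervals. Ratios used 0.5 added UMIs for calls (2-fold in all 4 libraries, mean of at least 20 CPM). Thinning drew 3000 UMIs per cell without replacement and left out shallower cells. Python 3.11.15, numpy 2.4.6, scipy 1.17.1 and matplotlib 3.10.9 were used, and the calling script was tested on simulated data. Cells and gene lists were chosen with earlier results of these data known. Named genes are the label markers, genes of 28 lists, the 10 highest and lowest called genes against each class, all genes above both, and the 8 highest and lowest at 16 months. Promoter sequences are RefSeq's. Alternatives changed the limits of the choice, the fold, the filter, the measure, the depth and the libraries.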

Additional observations from a re-analysis of the deposited data

Results flagged for a closer look

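The ratio of Limch1 Kcnk2 cells to Adipoq-high cells was at least 2 in 1 library and at most 0.5 in another, each with a counting interval clear of 1, for 6 genes of the lists, and these differences were not tested. For Hba-a1, a hemoglobin gene, the ratio was 3.10 at 16 months and 0.0842 at 1.5 months, and for Hbb-bs, its beta-chain partner, 2.45 at 16 months and 0.124 at 1.5 months. For Cd74, an invariant chain of immune cells, it was 2.70 at 16 months and 0.213 at 3 months. For Rgs5, a pericyte gene, it was 3.13 at 16 months and 0.138 at 1.5 months. For Aspn, the matrix protein asporin, it was 4.40 at 16 months and 0.191 at 3 months. For Ptn, the growth factor pleiotrophin, it was 2.15 at 16 months and 0.185 at 1 month. At 16 months a UMI of Hba-a1 was seen in 90 of the 178 Limch1 Kcnk2 cells, of Rgs5 in 20, of Cd74 in 11 and of Aspn in 10.

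Cells left out for more than 5% mitochondrial UMIs also held Limch1 Kcnk2 cells by every other criterion, above the 3 cells that a count of 0 allows. They numbered 48 of 291 at 1.5 months (16.5%), 11 of 325 at 3 months (3.38%) and 302 of 2892 at 16 months (10.4%).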

How the results depend on the processing

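No paired analysis was possible because the groups of the study are ages with 1 library each. Ratios between classes were taken within each library and, as the choice used them, were not tested. Of 118 values recomputed under alternatives, 66 stayed within the limits set for them, 52 moved and 0 reversed, and causes were not tested. The share of Limch1 Kcnk2 cells was 2.16% at 1.5 months with at least 40 Cxcl12 UMIs per 10000. Below 4 Adipoq UMIs it was 1.91% at 1.5 and 1.94% at 16 months, and with up to 10% mitochondrial UMIs 3.27% and 5.48%. Thinned to 3000 UMIs it was 0.818, 1.89, 1.53 and 1.05%. The counts of genes higher and lower than in Adipoq-high cells, higher and lower than in Bglap-high cells, above both, and higher and lower at 16 months were 124, 124, 1753, 174, 40, 689 and 815 at 1.5-fold. At 3-fold they were 19, 4, 414, 69, 5, 82 and 76, from a mean of 50 CPM 34, 20, 433, 61, 8, 155 and 158, and with no filter 461, 67, 13257, 232, 195, 815 and 1405. Centred on the median gene, a choice made after seeing the data, 379 genes were higher and 254 lower than in Bglap-high cells. Leaving out 1 library gave 54 to 87 genes higher than in Adipoq-high cells (87 without 1 month), 33 to 97 lower (97 without 16 months), 956 to 1082 higher and 109 to 122 lower than in Bglap-high cells, and 16 to 22 above both (22 without 16 months). At 16 months it gave 376 to 482 higher and 288 to 407 lower, the highest of each without 3 months. In these counts a gene has fewer libraries to pass. Both kinds of regulator were found in 16.4, 15.9 and 38.6% of cells at 1.5, 3 and 16 months at 2000 UMIs, and in 64.0, 67.9, 57.3 and 94.4% unthinned. Without Lepr the shares were 22.9% at 1.5 and 35.4% at 16 months.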
